A study of Mus musculus with 6 samples.

Results

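Malat1, Neat1, Kcnq1ot1, Gas5, Snhg1 and Snhg12 are long noncoding RNAs, and they make up 6 of the 16854 genes with values in the deposited table. They were measured in C2C12 cells, a mouse myoblast line that fuses into myotubes when serum is lowered. The 3 shAdamtsl2 libraries came from cells that stably carried a hairpin directed at Adamtsl2, which encodes a secreted matrix glycoprotein. The 3 control libraries came from cells with a scrambled hairpin. All cells were harvested on day 3 in medium with 2% horse serum. The labels do not say whether the libraries of a group came from separate cultures or from 1 clone, so p-values measure only the spread between these libraries, which may be technical.

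The 6 RNAs were selected on earlier results of these data. The share of reads that Malat1 took in shAdamtsl2 library 3 was taken to be the main value behind the choice. For Malat1, values that include that library are therefore a description with no test. The other 5 RNAs were chosen with results known as well, and their calls are read against the share of all genes called. By their GENCODE M21 biotypes (GRCm38), the 6 RNAs belong to a class of 1726 long noncoding RNA genes in the table.

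Malat1, Neat1 and Kcnq1ot1 act in the nucleus. Malat1 gathers in nuclear speckles, which hold splicing factors, and Neat1 is the RNA scaffold of paraspeckles. Kcnq1ot1 is transcribed from the paternal chromosome, antisense to Kcnq1, and silences neighbouring imprinted genes. Gas5, Snhg1 and Snhg12 host small nucleolar RNAs (snoRNAs) in their introns. The snoRNAs guide chemical modification of other RNAs, while the spliced host RNAs are exported, begin with a pyrimidine-rich 5′ end and are often degraded by nonsense-mediated decay.

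How these RNAs end matters for the libraries, which were made from poly(A)-selected RNA. Malat1 and the long Neat1 transcript carry no ordinary poly(A) tail. RNase P cuts them behind an A-rich tract, which folds into a triple helix with U-rich runs upstream. The short Neat1 transcript is polyadenylated. The 3′ regions are shown 5′ to 3′ from GENCODE M21 transcripts, written with T for U, because they separate these kinds of end. Capitals mark the U-rich runs and the A-rich tract in Malat1 and long Neat1, and the AATAAA motif in short Neat1.
Malat1 (chr19:5795922-5796077, minus strand, GRCm38, exonic): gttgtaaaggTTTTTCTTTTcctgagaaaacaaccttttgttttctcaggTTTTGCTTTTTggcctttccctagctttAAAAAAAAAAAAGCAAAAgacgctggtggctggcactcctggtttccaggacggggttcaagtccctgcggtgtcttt
Neat1 long (chr19:5824708-5824807, minus strand, GRCm38, exonic): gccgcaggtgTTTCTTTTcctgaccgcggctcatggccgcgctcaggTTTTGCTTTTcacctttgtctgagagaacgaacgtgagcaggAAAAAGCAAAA
Neat1 short (chr19:5842307-5842366, minus strand, GRCm38, exonic): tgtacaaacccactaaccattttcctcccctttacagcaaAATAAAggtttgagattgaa

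The annotated long Neat1 transcript of 20771 bases stops at the A-rich tract. The Malat1 transcript of 6983 bases runs past its tract into sequence that is cut off as a small tRNA-like RNA. In the short Neat1 transcript of 3004 bases, the last base of AATAAA lies 14 bases before the end. By comparison, 27.2% of 141515 annotated transcripts hold AATAAA in their last 60 bases. In their last 400 bases, 13 of 122312 hold a U-rich run followed by an A-rich tract, the Malat1 and long Neat1 transcripts shown among them, searched as at least 3 T, then C or GC, then at least 4 T, and later at least 4 A before GCAAAA. Gene-level counts do not separate the 2 Neat1 transcripts, which share their 5′ part.

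For the hosts, 1 snoRNA each is shown, since the host's name rests on these inserts. Capitals mark box C (TGATGA) and box D (CTGA), the short elements that snoRNP proteins bind. In Snord22 a box D match is marked, and these letters of box C are not in its first 36 bases. Of 1507 snoRNA transcripts in GENCODE M21, 20.8% hold TGATGA in the first 36 and CTGA in the last 23 bases.
Snord47 in Gas5 (chr1:161038082-161038158, plus strand, GRCm38): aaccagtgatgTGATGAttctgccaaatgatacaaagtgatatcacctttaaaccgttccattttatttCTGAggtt
Snord22 in Snhg1 (chr19:8725866-8725991, plus strand, GRCm38): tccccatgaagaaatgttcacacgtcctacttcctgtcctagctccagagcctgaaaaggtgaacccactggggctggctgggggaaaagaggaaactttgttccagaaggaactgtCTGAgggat
Snord99 in Snhg12 (chr4:132310691-132310764, plus strand, GRCm38): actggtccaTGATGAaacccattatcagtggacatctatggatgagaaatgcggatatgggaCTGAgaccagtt

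Recovered reads totalled 37346439 to 50329438 per library. Adamtsl2 had normalised counts of 23.2, 21.7 and 7.83 in shAdamtsl2 libraries 1 to 3, against 1325, 1266 and 1307 in control libraries 1 to 3 (log2 change -6.26 ± 0.41 SE, limma adjusted p = 1.1e-04). All 8 myotube markers tested were lower in shAdamtsl2, and their summed normalised count was 3193 to 4576 there, against 970985 to 985367 in control. Of 6 fibroblast markers 3 were higher and 1 lower, with sums of 61358 to 63552 in shAdamtsl2 and 3639 to 3862 in control. The macrophage markers with values were 3 of 5 and summed to 63.8 to 130 in shAdamtsl2 and 98.1 to 139 in control; Itgam had 0 reads in shAdamtsl2 libraries 1 and 2. Of the endothelial markers 2 of 4 had values, with sums of 18.2 to 90.5 in shAdamtsl2 and 6.32 to 6.65 in control, and of the adipocyte markers 1 of 5, Cebpa, with 2447 to 4072 in shAdamtsl2 and 583 to 643 in control. The part of this shift in cell state in the values of the 6 RNAs was not tested, and in bulk RNA fewer cells of a type and less RNA per cell cannot be told apart.

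Library 3 of shAdamtsl2 stood apart. Its Pearson correlations of log2 values across genes were 0.917 and 0.920 with libraries 1 and 2 of its own group, against 0.996 between those libraries; genes are not independent replicates. Long noncoding genes took 4.67% of its reads, against 1.41% in each of shAdamtsl2 libraries 1 and 2 and 1.59 to 1.67% in control. Without Malat1 that share was 1.84%, against 0.894 and 0.902% in libraries 1 and 2 and 1.29 to 1.35% in control. The fitted changes of the 6 RNAs are therefore given for all 6 libraries and without library 3, and those of other genes without it where its absence changed the call, the direction or the size by over 1.5 times.

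Neat1 was higher in every shAdamtsl2 library than in every control library. Its normalised counts were 62128, 58069 and 56918 in shAdamtsl2 libraries 1 to 3, and 12336, 13944 and 11990 in control libraries 1 to 3. The groups lay far apart, and library 3 fell beside its group. The means were 59038 ± 2737 in shAdamtsl2 and 12757 ± 1043 in control (SD, n = 3 each), a ratio of 4.63. On the log2(value + 1) scale the change was 2.21 ± 0.14 (SE; limma, Benjamini-Hochberg adjusted p = 0.000102), and 2.24 ± 0.07 without library 3 (limma adjusted p = 8.93e-10). Neat1 lies on the minus strand of chromosome 19 at chr19:5824708-5845478 and is annotated as a lincRNA. Only 6.12% of tested genes had as high a ratio of libraries 1 and 2 over control. That share was 30.8% for the ratio of Malat1, 33.1% for Snhg12 and 34.7% for Gas5. It was 65.3% for Kcnq1ot1 and 76.2% for Snhg1.

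Malat1 was the most abundant of the 6 RNAs in every library. Its normalised counts were 209070, 209349 and 1262350 in shAdamtsl2 libraries 1 to 3, and 158089, 142671 and 144380 in control libraries 1 to 3. All shAdamtsl2 libraries lay above all control libraries, but library 3 lay far above the other two. The group means were 560256 ± 608030 in shAdamtsl2 and 148380 ± 8452 in control (SD, n = 3 each), so the SD in shAdamtsl2 exceeded the mean. Without library 3, Malat1 was 1.41-fold higher in shAdamtsl2, with a log2 change of 0.50 ± 0.07 (SE; limma adjusted p = 0.000116). Over all 6 libraries the log2 change was 1.36 ± 0.74 (SE), given with no test.

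As a share of all reads, Malat1 took 2.83% in shAdamtsl2 library 3 (95% Wilson interval 2.82 to 2.83%). It took 0.511% (0.509 to 0.513%) in library 1 and 0.515% (0.513 to 0.517%) in library 2. In control libraries the share was 0.302 to 0.333%. These intervals cover counting error only, since reads without molecular identifiers are not independent molecules. The other 5 RNAs together took 0.170 to 0.190% of reads in shAdamtsl2, library 3 included, and 0.0468 to 0.0490% in control, of which Neat1 was the main part.

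Malat1, annotated as a lincRNA, occupies chr19:5795690-5802672 on the minus strand, and 22036 bases separate it from Neat1. In shAdamtsl2 library 3 the Malat1 count was 6.03 times its own mean over libraries 1 and 2. The Neat1 count in library 3 was 0.947 times the Neat1 mean over those libraries. The ratio of Neat1 to Malat1 per kilobase of exon was 0.0999, 0.0933 and 0.0152 in shAdamtsl2 libraries 1 to 3, against 0.0262, 0.0329 and 0.0279 in control libraries 1 to 3. In libraries 1 and 2 this ratio was above every control value, and in library 3 it was below every control value. Frmd8, next to Neat1 and coding for a partner of the iRhom shedding machinery, had 0.38 ± 0.31 (limma adjusted p = 0.367) over 6 libraries and 0.75 ± 0.05 (limma adjusted p = 3.97e-07) without library 3.

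**Figure D1:**
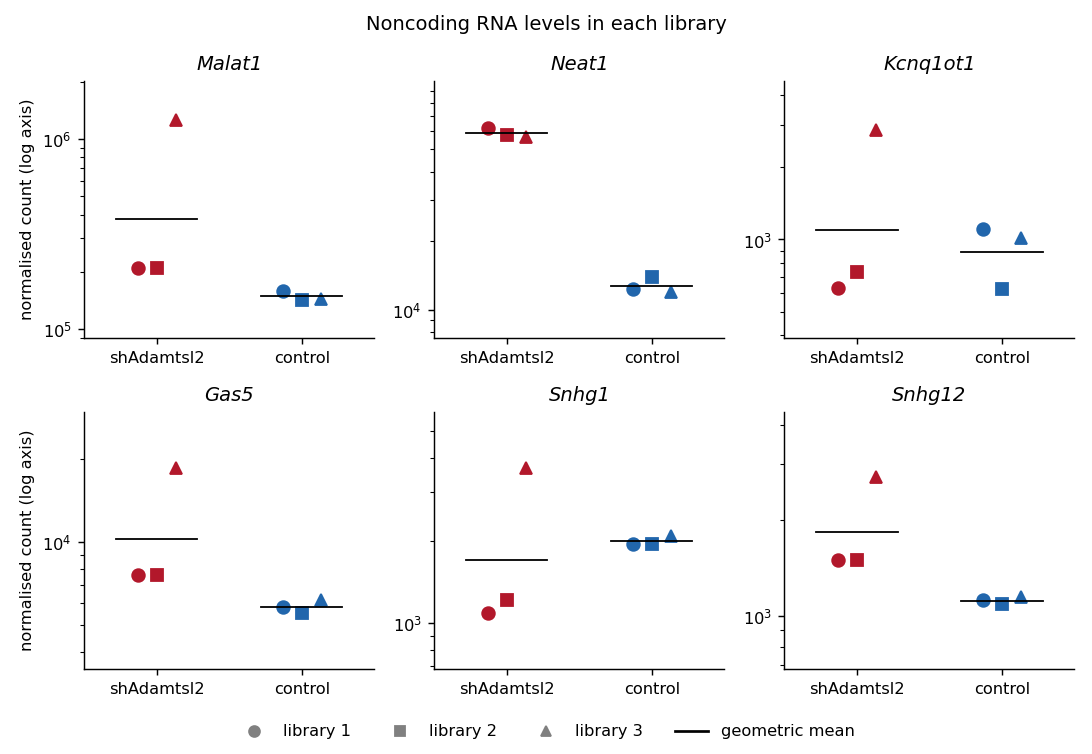
Normalised counts of the 6 RNAs on log axes, 1 panel each, with shAdamtsl2 left of control; circles, squares and triangles are libraries 1, 2 and 3, and bars are geometric means. Library 3 of shAdamtsl2 lies above libraries 1 and 2 for every RNA but Neat1.

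Kcnq1ot1 was the least abundant of the 6 per kilobase and the most variable among controls, with a coefficient of variation of 28.2%, against 2.79 to 8.17% for the other 5. Its normalised counts were 631, 731 and 2845 in shAdamtsl2 libraries 1 to 3, and 1109, 621 and 1010 in control libraries 1 to 3. The groups overlapped: libraries 1 and 2 lay within the control range and library 3 above it. The log2 change was 0.30 ± 0.61 (SE; limma adjusted p = 0.715) over 6 libraries and -0.38 ± 0.20 (limma adjusted p = 0.108) without library 3. The sign thus turned with library 3, and neither value passed the test. Without library 3, edgeR called it lower at -0.41 (adjusted p = 0.028), and so did limma at -0.64 when control library 2 was left out as well (adjusted p = 9.14e-05). Leaving out control library 1 in place of 2 gave -0.22 (limma adjusted p = 0.357), and scaling to library totals -0.16 (limma adjusted p = 0.472).

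Kcnq1ot1 spans chr7:143203458-143296549 on the minus strand as an unspliced antisense transcript of 93092 bases. It overlaps Kcnq1, a potassium channel gene on the plus strand, by 121 exonic bases, and without a known strand setting reads there cannot be told apart. Kcnq1 itself had only 0.829, 2.51 and 1.12 normalised counts in shAdamtsl2, against 27.2, 37.9 and 23.8 in control (log2 change -3.66 ± 0.42, limma adjusted p = 0.000908). Of the 10 tested genes in the Kcnq1 domain list, 8 were lower and 1 higher, with a median log2 change of -2.41, against -0.00 over all genes tested. Without library 3 the count was 8 lower and 2 higher. For comparison, 23.5% of all genes were lower and 21.7% higher with 6 libraries, and 39.9% lower and 38.6% higher without library 3.

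Cdkn1c, an imprinted inhibitor of cyclin-dependent kinases, had 183, 171 and 321 normalised counts in shAdamtsl2, against 6905, 6953 and 7739 in control (log2 change -5.05 ± 0.26, limma adjusted p = 4.67e-05). Dhcr7, the last enzyme of one cholesterol synthesis route, was lower by a log2 change of -3.56 ± 0.37 (limma adjusted p = 0.000622). The gene called higher was Slc22a18, a membrane transporter of the organic cation family, with 48.9, 47.7 and 77.1 normalised counts in shAdamtsl2 and 2.18, 7.58 and 0.95 in control (log2 change 3.93 ± 0.60, limma adjusted p = 0.00298). Whether Kcnq1ot1 had a part in the values of these genes was not tested.

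Gas5, first described as a transcript that accumulates in growth-arrested cells, had normalised counts of 7578, 7624 and 18563 in shAdamtsl2 libraries 1 to 3, and 5814, 5527 and 6154 in control libraries 1 to 3. Every shAdamtsl2 library lay above every control library, library 3 by the most. Over 6 libraries the log2 change was 0.81 ± 0.37 (SE; limma adjusted p = 0.121), which did not pass. Without library 3 it was 0.38 ± 0.05 (limma adjusted p = 7.72e-05), a 1.3-fold difference. Gas5 lies at chr1:161034422-161038539 on the plus strand, with 25 annotated transcripts, of which 20 retain introns, and 9 snoRNA loci. It overlaps the gene body of Zbtb37, a zinc finger gene on the other strand, with no exonic base in common. Zbtb37 had 1042 in library 3, against 2016 and 1841 in libraries 1 and 2 and 1159 to 1403 in control. Its log2 change was 0.28 ± 0.27 (limma adjusted p = 0.443) and, without library 3, 0.57 ± 0.08 (limma adjusted p = 0.000114).

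Snhg1 went the other way in libraries 1 and 2. It had normalised counts of 1089, 1215 and 3681 in shAdamtsl2 libraries 1 to 3, and 1945, 1943 and 2080 in control libraries 1 to 3. Libraries 1 and 2 lay below all control libraries and library 3 above all of them. The means, 1995 ± 1461 in shAdamtsl2 and 1989 ± 78.5 in control (SD, n = 3 each), do not show this split, and the 6-library log2 change was -0.23 ± 0.47 (SE; limma adjusted p = 0.72). Its sign was the other with edgeR (0.04) and DESeq2 (0.03) on the same libraries. Without library 3 Snhg1 was lower, by a log2 change of -0.79 ± 0.06 (limma adjusted p = 1.39e-06).

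Snhg1 lies at chr19:8723475-8726443 on the plus strand and holds 8 snoRNA loci. Slc3a2, the heavy chain of a large amino acid transporter, starts 106 bases away on the opposite strand. Its normalised counts were 4784, 4744 and 4786 in shAdamtsl2 and 10677, 10910 and 10989 in control, so it was lower in all 3 libraries alike (log2 change -1.19 ± 0.10, limma adjusted p = 0.000289). Wdr74, a ribosome assembly factor on the other side, had 65.5, 68.6 and 347 in shAdamtsl2 and 170, 172 and 188 in control, a split between libraries like that of Snhg1. Its log2 change was -0.60 ± 0.66 (limma adjusted p = 0.497) and, without library 3, -1.38 ± 0.14 (limma adjusted p = 6.45e-06).

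Snhg12 had normalised counts of 1498, 1501 and 2746 in shAdamtsl2 libraries 1 to 3, and 1119, 1086 and 1149 in control libraries 1 to 3. The groups did not overlap, and library 3 was again the highest. The 6-library log2 change was 0.71 ± 0.26 (SE; limma adjusted p = 0.0653), short of the threshold, and without library 3 it was 0.42 ± 0.06 (limma adjusted p = 5.64e-05). Snhg12 lies at chr4:132308623-132311024 on the plus strand and holds 4 snoRNA loci. The one of its snoRNAs with values, Snora16a, shares 137 exonic bases with the host annotation. It had 28.2, 25.1 and 5.59 normalised counts in shAdamtsl2 and 19.6, 25.3 and 22.8 in control (log2 change -0.45 ± 0.62, limma adjusted p = 0.589), and without library 3 the log2 change was 0.24 ± 0.26 (limma adjusted p = 0.424).

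Trnau1ap, which helps read selenocysteine codons and lies 739 bases from Snhg12 on the opposite strand, had 1590, 1634 and 3733 normalised counts in shAdamtsl2 and 1246, 1301 and 1354 in control. Like Snhg12 it was highest in library 3. Its log2 change was 0.71 ± 0.34 (limma adjusted p = 0.142) over 6 libraries and 0.31 ± 0.06 (limma adjusted p = 0.000671) without library 3.

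Relative to each other, the 3 snoRNA hosts kept some ratios and not others. The Gas5 to Snhg12 ratio per kilobase was 3.23, 3.24 and 4.32 in shAdamtsl2, against 3.32, 3.25 and 3.42 in control. In libraries 1 and 2 it lay just below the control values and in library 3 above them. The Gas5 to Snhg1 ratio was 5.49, 4.95 and 3.98 in shAdamtsl2, against 2.36, 2.25 and 2.34 in control, so this ratio was higher in every shAdamtsl2 library, the third included. The Snhg12 to Snhg1 ratio was 1.7, 1.53 and 0.922 in shAdamtsl2, against 0.711, 0.691 and 0.683 in control, also without overlap.

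Per kilobase of exon, the order of mean levels in shAdamtsl2 was Malat1 (80232 ± 87073 normalised counts), Gas5 (2993 ± 1683), Neat1 (2842 ± 132), Snhg12 (797 ± 299), Snhg1 (672 ± 492) and Kcnq1ot1 (15.1 ± 13.4). In control it was Malat1 (21249 ± 1210), Gas5 (1551 ± 83.4), Snhg1 (670 ± 26.4), Neat1 (614 ± 50.2), Snhg12 (465 ± 13) and Kcnq1ot1 (9.81 ± 2.77; SD, n = 3 each). Of neighbours in these orders, Malat1 and Gas5, Gas5 and Neat1, and Snhg12 and Snhg1 in shAdamtsl2 lay within their summed SDs of each other, as did Snhg1 and Neat1 in control. The place of Gas5 above Neat1 in shAdamtsl2 rests on library 3. Over libraries 1 and 2 the means per kilobase were 29960 for Malat1, 2893 for Neat1, 2022 for Gas5, 624 for Snhg12, 388 for Snhg1 and 7.32 for Kcnq1ot1. Neat1 then stood above Gas5, and the other ranks were the same. In library 3 Malat1 (180775) was also far above Gas5 (4937), while Snhg1 (1240) stood above Snhg12 (1143). The Neat1 value divides by the full length of the long transcript, though the short one shares only its 5′ part.

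Across all genes 45.2% of 16245 were called in the 6-library fit, 21.7% higher and 23.5% lower. Of the 5 RNAs other than Malat1, 1 was called, Neat1, in the higher direction. Without library 3, 78.5% of genes were called, 38.6% higher and 39.9% lower. In that fit 5 of the 6 RNAs were called, Malat1, Neat1, Gas5 and Snhg12 higher and Snhg1 lower, a share near that background. Leaving Malat1 aside, the groups did not overlap over 6 libraries for 3 of the 5 others, beside 62.6% of all genes. Neat1 was the member called in both fits, with the same direction and nearly the same size.

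**Figure D2:**
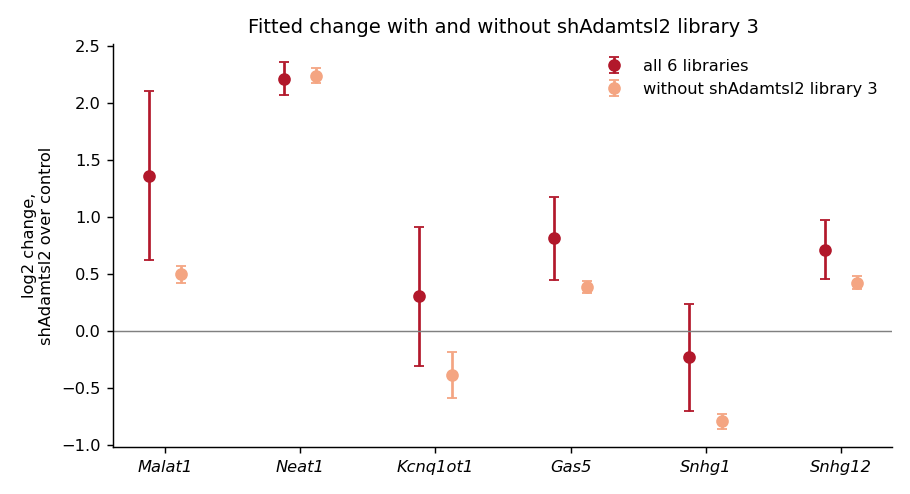
Fitted log2 change of shAdamtsl2 over control for the 6 RNAs, with all 6 libraries (dark) and without shAdamtsl2 library 3 (light); points are estimates and bars their standard errors. Neat1 stays at 2.21 and 2.24, while the sign of Kcnq1ot1 turns and Snhg1 moves to -0.79.

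The authors' deposited table, which includes library 3, gave log2 changes of 1.92 for Malat1, 2.21 for Neat1, 0.62 for Kcnq1ot1, 0.95 for Gas5, 0.00421 for Snhg1 and 0.78 for Snhg12. Adjusted p-values in the authors' deposited table were 2.93e-82 for Neat1, 0.0426 for Gas5, 0.0237 for Snhg12, 0.433 for Kcnq1ot1 and 0.996 for Snhg1. Gas5 and Snhg12 thus pass 0.05 in the authors' deposited table and not in the 6-library limma fit.

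Malat1 in library 3 was taken to have led to the choice of these RNAs and is described here with no comparison. Of the 5 others, 4 were above both libraries 1 and 2 in library 3, beside 45.9% of all genes and 64.3% of long noncoding genes tested. As multiples of the mean of libraries 1 and 2, its values were 6.03 for Malat1, 4.18 for Kcnq1ot1, 3.19 for Snhg1, 2.44 for Gas5, 1.83 for Snhg12 and 0.947 for Neat1. The median multiple over genes was 0.965, with quartiles of 0.608 and 1.72. A multiple at least as high as that of Kcnq1ot1 was found for 7.91% of tested genes, and as that of Neat1 for 51% of them. For Snhg1, Gas5 and Snhg12 these shares were 11.1, 15.9 and 22.9%. With 1 library on one side there is no replicate check of these ratios.

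Library 3 differed from the others in further features. With genes put in 4 equal bins by exonic length, the median multiple was 1.52 in the shortest bin and 1.01, 0.821 and 0.77 in bins 2 to 4. Malat1, Neat1 and Kcnq1ot1 fall in bin 4 and the 3 snoRNA hosts in bin 2. Processed pseudogenes took 0.649% of reads in library 3, against 0.231 to 0.319% in the other libraries. Of a list of small RNAs without a poly(A) tail, 4 had values, and they summed to 4929 normalised counts in library 3, against 520 and 495 in libraries 1 and 2 and 76.3 to 126 in control. Rn7sk, which holds the elongation factor P-TEFb inactive, had 4286 in library 3, against 455 and 446 in libraries 1 and 2 and 39.2 to 52.3 in control (6-library log2 change 4.37 ± 0.90, limma adjusted p = 0.00934). DESeq2 gave Rn7sk no p-value over 6 libraries, and without library 3 its limma log2 change was 3.28 ± 0.16 (adjusted p = 2.61e-08). Rmrp and Rpph1, RNA parts of RNase MRP and RNase P, had 237 and 347 in library 3, against 34.8 and 21.7, and 23.2 and 20.1, in libraries 1 and 2. The part of length, RNA type or library handling in the values of the 6 RNAs was not tested.

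**Figure D3:**
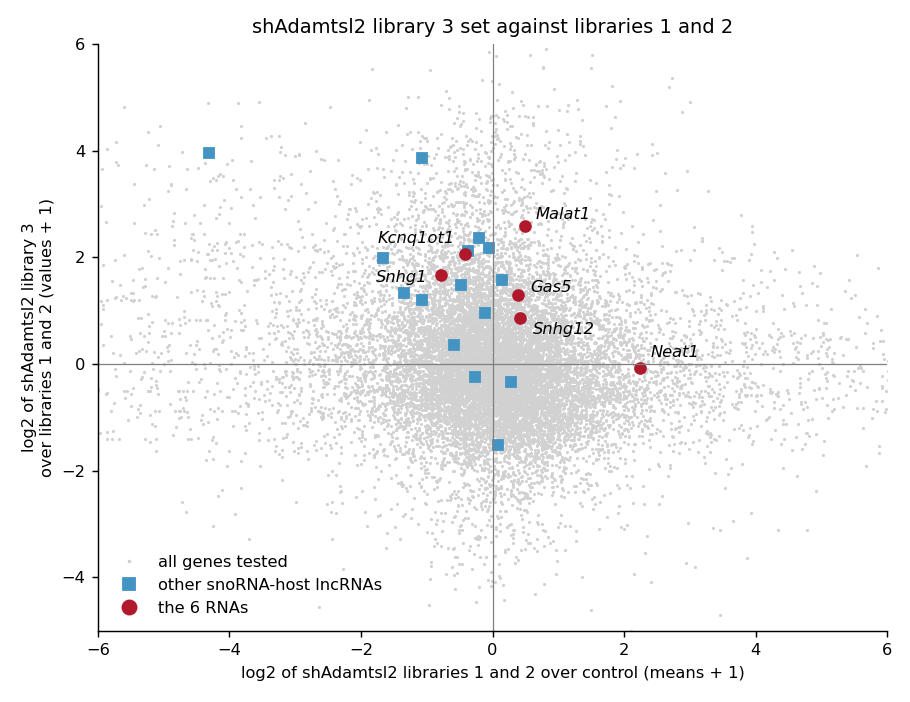
Each gene's log2 ratio of shAdamtsl2 libraries 1 and 2 over control (x axis) and of shAdamtsl2 library 3 over libraries 1 and 2 (y axis); grey dots are all genes within the plotted range, squares other snoRNA-host long noncoding RNAs and circles the 6 RNAs. Malat1, Kcnq1ot1, Snhg1, Gas5 and Snhg12 lie above 0 on the y axis, and Neat1 lies near 0 and far to the right.

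Most of the other long noncoding hosts of snoRNAs were also split between libraries. Of 15 tested, 0 were called by limma over 6 libraries in either direction; at an unadjusted p under 0.05 the count was 0 higher and 2 lower, by edgeR 0, and by DESeq2 1 lower. Without library 3, 9 of the 15 were lower and 0 higher by limma (likewise at an unadjusted p under 0.05 and by edgeR and DESeq2; 7 lower and 2 higher when scaled to library totals), with a median log2 change of -0.36, against -0.01 over all genes tested. Of all genes, 45.2% were called with 6 libraries, and 39.9% were lower and 38.6% higher without library 3. Of 1573 long noncoding genes tested, 434 were lower and 524 higher without library 3. Gas5 and Snhg12, called higher in that fit, thus differ in direction from the 9. In library 3, 12 of the 15 were above both other shAdamtsl2 libraries, against 45.9% of all genes and 64.3% of long noncoding genes.

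Zfas1, the host of a group of box C/D snoRNAs, had 3261, 3726 and 15846 normalised counts in shAdamtsl2 and 3613, 3340 and 3944 in control. Snhg8 had 1638, 1725 and 7302 in shAdamtsl2 and 2067, 2093 and 2343 in control. Both were highest in library 3 by a wide margin. Zfas1 had log2 changes of 0.67 ± 0.60 over 6 libraries and -0.06 ± 0.08 without library 3, and Snhg8 0.34 ± 0.58 and -0.36 ± 0.07; of these 4 values the last passed the test (limma adjusted p = 0.00051).

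Protein-coding genes that host snoRNAs, largely ribosomal protein and translation factor genes, were lower in 6 and higher in 0 of 26 over 6 libraries by limma (9 and 0 at an unadjusted p under 0.05, 6 and 0 by edgeR, 7 and 1 by DESeq2). Without library 3 they were lower in 22 and higher in 1. Over all genes, 23.5% were lower with 6 libraries and 39.9% without library 3. Eif4a1, an RNA helicase of translation initiation, was lower by a log2 change of -0.91 ± 0.13 (limma adjusted p = 0.00193). Tcp1, a subunit of the cytosolic chaperonin, was lower by -1.24 ± 0.22 (limma adjusted p = 0.00494). The list's median log2 change was -0.40 over 6 libraries and -0.66 without library 3.

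Proteins that build snoRNPs were lower in 9 and higher in 2 of 18 tested genes, with a median log2 change of -0.65, and lower in 13 and higher in 3 without library 3, beside the same 23.5 and 39.9% of all genes lower. Rrp9, a protein of the U3 snoRNP, had 800, 804 and 834 normalised counts in shAdamtsl2 and 2163, 2156 and 2493 in control (log2 change -1.48 ± 0.11, limma adjusted p = 0.000192). Ruvbl1, an assembly ATPase, was lower by -1.09 ± 0.13 (limma adjusted p = 0.00118). Naf1 and Znhit6, both assembly factors, were higher, by log2 changes of 0.75 ± 0.12 and 0.84 ± 0.16 (limma adjusted p = 0.00361 and 0.00706).

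Of 17 nonsense-mediated decay genes tested, 3 were called higher and 3 lower, and without library 3 the count was 6 higher and 8 lower (8 higher and 5 lower there when scaled to library totals). In all, 6 of 17 and then 14 of 17 were called, the second share near the 78.5% of all genes. Smg6, the endonuclease of this pathway, was higher by 0.73 ± 0.11 and Casc3, of the exon junction complex, by 0.45 ± 0.13 (limma adjusted p = 0.0024 and 0.0352). The exon junction helicase Eif4a3 was lower by -0.77 ± 0.10 (limma adjusted p = 0.00178). The list's median log2 change was 0.04 over 6 libraries by limma, close to that of all genes. Without library 3 it was -0.16, against -0.01 over all genes. Over 6 libraries it was 0.36 with edgeR and 0.35 with DESeq2, against 0.11 and 0.09 over all genes.

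Paraspeckle proteins were called in both directions. Of 15 tested, 2 were higher and 4 lower over 6 libraries, and 2 higher and 10 lower without library 3, with median log2 changes of -0.30 and -0.28. Scaled to library totals, the counts were 2 higher and 1 lower, and 3 higher and 4 lower without library 3. The 6 and 12 of 15 called by limma are close to the 45.2 and 78.5% of all genes. The core proteins Nono, Sfpq and Pspc1 had log2 changes of -0.56 ± 0.32, -0.24 ± 0.13 and -0.36 ± 0.21 over 6 libraries, none past the test (limma adjusted p = 0.2, 0.167 and 0.209). Without library 3, Nono and Sfpq were lower, by -0.19 ± 0.05 and -0.18 ± 0.06 (limma adjusted p = 0.00292 and 0.022), and Pspc1 had -0.14 ± 0.07 (limma adjusted p = 0.0722). These calls depended on the scaling. Scaled to library totals, Nono, Sfpq and Pspc1 had 0.03, 0.04 and 0.08 without library 3 (limma adjusted p = 0.631, 0.569 and 0.3). The median of all genes was 0.21 there. Sfpq also did not pass without library 3 with upper-quartile scaling or no trend (limma adjusted p = 0.0827 and 0.101). Nudt21, a subunit of cleavage factor I, which in human cells takes part in forming the 3′ end of the short Neat1 transcript, was higher. It had 3844, 3868 and 8004 normalised counts in shAdamtsl2 and 1790, 1650 and 1893 in control (log2 change 1.47 ± 0.30, limma adjusted p = 0.0097). Its partner Cpsf6 was lower by -0.30 ± 0.10 (limma adjusted p = 0.0494). Hnrnph3 was higher by 0.38 ± 0.10, and the RNA-binding protein Dazap1 and the chromatin remodeller Smarca4 were lower by -0.64 ± 0.13 and -0.69 ± 0.18 (limma adjusted p = 0.0235, 0.00814 and 0.0228). Nono, Pspc1, Cpsf6 and Sfpq were picked after their values were seen.

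Nuclear speckle proteins were higher in 3 and lower in 0 of 19 over 6 libraries by limma (4 and 1 at an unadjusted p under 0.05, 3 and 0 by edgeR, 4 and 2 by DESeq2). Without library 3 the count was 8 higher and 7 lower, or 12 and 3 when scaled to library totals. These 15 of 19 are close to the 78.5% of all genes called. Clk1, a kinase of splicing factors, had 5769, 6021 and 7584 normalised counts in shAdamtsl2 and 3177, 3316 and 3114 in control (log2 change 1.00 ± 0.14, limma adjusted p = 0.00206). Srrm1, a splicing coactivator, was higher by 0.71 ± 0.19 (limma adjusted p = 0.0267).

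Among 13 other long noncoding RNAs tested, 1 was higher and 5 lower, and without library 3 the count was 4 higher and 6 lower (7 and 5 when scaled to library totals). The 6 and 10 of 13 called are close to the shares of all genes called, 45.2 and 78.5%. H19, an imprinted RNA that rises in differentiating muscle, had 16701, 15025 and 10571 normalised counts in shAdamtsl2 and 215147, 217513 and 215724 in control (log2 change -3.96 ± 0.22, limma adjusted p = 6.44e-05). Xist was lower by -1.04 ± 0.18, and Airn, the imprinted antisense RNA of Igf2r, was higher by 0.80 ± 0.20 (limma adjusted p = 0.00466 and 0.0199). All 3 were lower in library 3 than in libraries 1 and 2, with multiples of 0.666, 0.784 and 0.686. Of the 13, 4 were above both of these libraries in library 3, beside 64.3% of long noncoding genes. Among these 4 was Dleu2, with a multiple of 6.31. Over the 1573 long noncoding genes tested, 331 were higher and 243 lower with 6 libraries. Over all 16245 genes, 3519 were higher (21.7%) and 3823 lower (23.5%). The share higher was thus near that of all genes, and the share lower was below it. The median log2 change of the long noncoding genes was 0.35 over 6 libraries and 0.17 without library 3, against -0.00 and -0.01 over all genes.

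**Figure D4:**
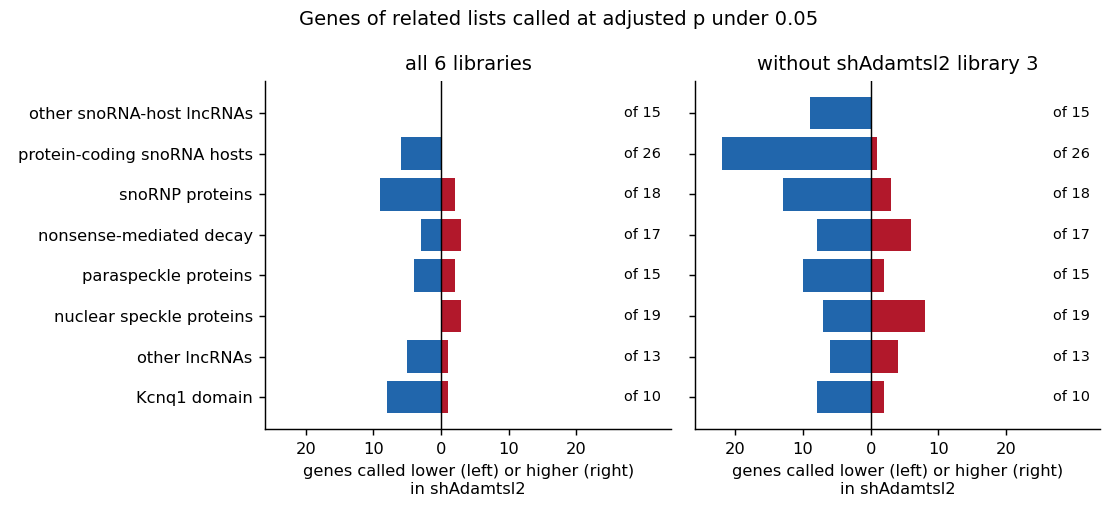
Number of genes called lower (bars to the left) or higher (bars to the right) in shAdamtsl2 at a limma adjusted p under 0.05 for 8 related lists, with all 6 libraries (left panel) and without shAdamtsl2 library 3 (right panel); the number tested stands at the right. Other snoRNA-host long noncoding RNAs go to 9 lower of 15, and protein-coding hosts to 22 lower of 26, once library 3 is left out. Of all genes tested, 39.9% were lower in that fit.

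The genes most like each RNA were found by Euclidean distance of log2 values over the 6 libraries, each centred on its mean. Nearest to Neat1 was Gab1, a docking protein of receptor tyrosine kinases, at a distance of 0.175, with 5071, 5122 and 4700 normalised counts in shAdamtsl2 and 1025, 1105 and 897 in control. Fto and Dlc1 came next, at 0.206 and 0.221. Nearest to Malat1 were Ppp4r1l-ps, Smap1 and Rex1bd, at 0.351 to 0.386. Smap1 had 1375, 1254 and 6109 in shAdamtsl2 and 891, 932 and 913 in control.

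For Gas5 the nearest was Sat2, at 0.0681, followed by Aurkaip1 and Atpif1. Atpif1, the mitochondrial ATPase inhibitor, had 3636, 3666 and 9567 normalised counts in shAdamtsl2 and 3005, 2757 and 3065 in control. Snhg1 was nearest to Psma7, a proteasome subunit, at 0.107, and then to Snrpd1 and Cox6a1. Psma7 had 3891, 4139 and 12640 in shAdamtsl2 and 7176, 6894 and 7634 in control, the same split between libraries as Snhg1. Snhg12 was nearest to Pwwp2a at 0.0818, Cep57l1 and Phax, and Kcnq1ot1 to Lars2 at 0.485, Rpl38-ps2 and Comtd1, the largest of the 6 first distances.

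The start regions of the 3 hosts are shown because their spliced RNAs are known for pyrimidine-rich 5′ ends. Each window holds 50 bases before and 50 from the RefSeq start (GRCm38.p6), and capitals mark the longest run of C and T that touches the stretch from 10 bases before to 15 after it.
Gas5 (chr1:161035116-161035215, plus strand): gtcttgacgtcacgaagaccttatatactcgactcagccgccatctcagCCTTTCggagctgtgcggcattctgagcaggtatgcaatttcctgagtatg
Snhg1 (chr19:8723437-8723536, plus strand): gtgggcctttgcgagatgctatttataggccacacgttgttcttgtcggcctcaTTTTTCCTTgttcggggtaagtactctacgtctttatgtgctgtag
Snhg12 (chr4:132308628-132308727, plus strand): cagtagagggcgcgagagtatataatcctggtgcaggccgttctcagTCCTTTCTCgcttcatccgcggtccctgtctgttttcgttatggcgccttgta

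The run was 6 bases in Gas5, a length reached by 33.1% of 32851 promoters, and 9 bases in Snhg1 and Snhg12, reached by 10.7% of them. In Malat1 and Kcnq1ot1 it was 4 bases, reached by 69.9%. Such a run is a description of the letters and not of a site in use.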

How the data were processed

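Poly(A)-selected RNA of C2C12 cells was sequenced in 3 shAdamtsl2 and 3 control libraries as paired reads of 150 bp, per the labels' protocols. Groups were taken from the sample titles. Trimmomatic 0.36, featureCounts in Subread 1.5.2, DESeq2 and GRCm38 were used, per the submitters' processing notes; for the aligner, annotation release and strand setting, the sources used here state nothing. The table the authors deposited holds a normalised signal for each gene in each library (counts over a size factor of that library), with log2 fold changes and p-values of a comparison the authors ran, per the file headers. Dividing by the smallest step of a library gave whole reads for 100% of values (tolerance 0.01 reads), and 1 read was worth 0.829 to 1.26 normalised units.

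Genes reaching 10 normalised units in 3 or more libraries (16245 of 16854) were fitted with limma 3.58.1 (R 4.3.3) on log2(value + 1), with a mean-variance trend and no covariates. The test was two-sided, with Benjamini-Hochberg adjustment over all genes tested and a threshold of 0.05. A second fit left out shAdamtsl2 library 3 and kept the same genes. Fold changes on this scale understate the change of low genes. The code of the fit was run on simulated counts with the same spread in every library. Such a run cannot show how the fit treats an outlying library such as shAdamtsl2 library 3. Alternatives were edgeR 4.0.16 (7344 genes called, against 7342 by limma) and DESeq2 1.42.0 on the recovered reads, other scalings, filters and pseudocounts, no trend, a replicate block, a threshold of 0.01 and each library left out.

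The 6 RNAs, the gene lists and the tests were chosen with earlier results of these data known. Genes named are the 6 RNAs, Adamtsl2, up to 2 genes per direction of each list by smallest adjusted p (the 2 with the highest mean where none is called), and the 3 genes nearest to each RNA among those with a symbol, a mean of at least 100 and no Gm number, Rik clone or mt- name. Neighbouring and overlapping genes, Kcnq1, Rmrp and Rpph1 were added after their values were seen. Not every gene given by these rules is reported here. Positions are from GENCODE M21 and found 16812 of 16854 identifiers; start regions are from RefSeq, matched for 5 of the 6 RNAs.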

Additional observations from a re-analysis of the deposited data

How the results depend on the processing

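Neat1 kept its direction and its side of the threshold in all 18 alternatives of the 6-library fit and all 17 of the fit without shAdamtsl2 library 3, with log2 changes of 2.17 to 2.28 and 2.19 to 2.30 when 1 library was left out. Malat1, with no test over 6 libraries, ranged from 0.50 to 1.79 when 1 library was left out, and was 1.95 with DESeq2 and 1.96 with edgeR. Over 6 libraries, DESeq2 gave Gas5 0.97, Snhg12 0.80 and Snhg1 0.031, with 3 of the 5 RNAs other than Malat1 called higher. edgeR gave Snhg1 0.0446. Scaling to library totals gave Snhg12 0.89 and 2 of these 5 called higher, but moved the median of all genes to 0.18 (0.21 without library 3; upper-quartile scaling 0.12 and edgeR 0.11 over 6 libraries). With each library left out in turn, Gas5 ranged from 0.38 to 1.03, Kcnq1ot1 from -0.38 to 0.70, Snhg1 from -0.79 to 0.09 and Snhg12 from 0.42 to 0.86, with 1 to 3 of the 5 RNAs other than Malat1 called higher and 0 to 1 lower. Kcnq1ot1 reached -0.38 without shAdamtsl2 replicate 3, and Snhg1 was 0.0895 without shAdamtsl2 replicate 1 and 0.01 without replicate 2. Without library 3, 1 to 2 RNAs were called lower when a further library was left out; Kcnq1ot1 was the added one without control replicate 2 and with edgeR, which gave 2. The cause was not tested. All genes called numbered 7342 over 6 libraries, 5101 to 12754 with a library left out (12754 without shAdamtsl2 library 3), and 4828 at a threshold of 0.01.

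Deviations from group means correlated at 0.0169, 0.105 and 0.143 between libraries of equal replicate number, and at -0.147 to 0.116 between the others. Deviations within a group are tied to each other, so these values neither show nor exclude a pairing. With the replicate block 6311 genes were called over 6 libraries, and without library 3, where 2 pairs remain, the replicate block called 2 RNAs lower, Kcnq1ot1 (-0.29, adjusted p = 0.00118) being the added one; it changed no other call of the 6 RNAs.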
